A study of Mus musculus with 4 samples.

Results

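The fibroblast growth factor (FGF) system was followed through 9 genes in RNA sequencing libraries of adipocyte precursor cells. They comprised 5 ligands (Fgf1, Fgf2, Fgf7, Fgf10 and Fgf18) and 4 receptors (Fgfr1, Fgfr2, Fgfr3 and Fgfrl1). They were taken by gene symbol from tables of 20207 genes, and every table listed all 9. Adipocyte precursors are the stromal cells of adipose tissue from which new fat cells form, and here they were freshly sorted as Sca1+ CD45- CD31- cells. The mice were young and of the C57BL/6 strain. Their genotype was wild type (WT, littermate controls, 2 libraries) or knockout (KO) of the clock gene Per3 (2 libraries). RNA was taken at zeitgeber time 2, shortly after lights on, and the labels name no treatment. The Per3 allele, the fat depot and any pooling of animals are not stated in the labels. Neither do the labels call the replicates separate animals, so p-values cover only how far these samples vary, and that variation may be technical.

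FGF ligands are secreted proteins that bind heparan sulfate on the cell surface and bring together receptors that carry a tyrosine kinase inside the cell. The activated receptor signals through the docking protein FRS2 to the RAS-ERK cascade, which in turn induces its own inhibitors. In mouse fat tissue, FGF10 takes part in the growth of white fat and FGF1 is induced by high-fat feeding, while FGFR1 is known as the main receptor of mesenchymal cells.

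Values below are given in replicate order, WT first. Library totals were 37101112 and 27950724 reads in the WT pair and 40002999 and 64964300 reads in the KO-labelled pair. Per3 itself had 121 and 170 reads in the WT pair and 193 and 768 in the other. It was thus not lower in the knockouts, and a whole-gene count does not check a partial deletion, so those libraries are called KO-labelled. WT 2 stood apart: 31 genes were at 0 there while reaching at least 100 reads in each other library, against 1 to 8 such genes elsewhere. The log2 profiles of the WT pair correlated at 0.857 across genes, and those of the KO-labelled pair at 0.916. With Per3 KO 1 and Per3 KO 2, WT 1 correlated at 0.926 and 0.921, and WT 2 at 0.892 and 0.853. WT 1 was thus closer to each KO-labelled library than to WT 2. All 10 precursor markers were detected in every library. Among markers of other cells, summed counts scaled to library size (CPM) reached at most 168 CPM for 8 endothelial genes, of which Tek alone gave up to 161 CPM and Tie1 was at 0 throughout. They reached at most 43.3 CPM for 9 leukocyte, 38.4 CPM for 8 mural, 61.6 CPM for 6 Schwann cell, 6.97 CPM for 7 epithelial and 7.51 CPM for 5 mesothelial genes, the last with Upk3b and Wt1 at 0 throughout. The WT and KO-labelled ranges of these 6 sums overlapped, but some single markers did not. Of 30 tested in these lists, 7 were higher and 4 lower in both KO-labelled libraries, against 14.6% and 11.5% of all genes tested. An unadjusted edgeR p under 0.05 was reached by 6 of the 30, against 2.06% of all genes tested. The leukocyte genes Cd52 (28 and 126 reads) and S100a8 (10 and 35 reads) were read only in the WT pair, and DESeq2 called Cd52 (adjusted p = 0.0172). The epithelial genes Cdh1 (19 and 72 reads) and Cldn4 (38 and 112 reads) were read only in the KO-labelled pair, where the mural genes Rgs5 and Cnn1 were higher as well. These 6 genes were chosen after their values were seen. A gene read in a single pair passes the filter only through that pair, so its side was fixed by the filter. The counts of the 30 hold such genes, so setting them beside the shares of all genes is not a test. Of 6 leukocyte genes tested, 1 was higher and 2 were lower in both KO-labelled libraries. Of 5 epithelial genes tested, 2 were higher and 1 was lower, and of 8 mural genes 3 were higher and 0 lower. For 8 skeletal muscle genes, the WT sums of 68.3 and 116 CPM lay above the KO-labelled sums of 29.0 and 29.5 CPM, and Tnnc2 among them was called by DESeq2 (adjusted p = 0.0289). The part of these levels in the values below was not tested.

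Promoters of the leading ligand, of its closest relative and of the receptor gene with a clock motif are printed because the knocked-out gene belongs to the clock. Each is the 250 bases before the annotated start in the mouse build GRCm38.p6, from RefSeq, 5′ to 3′, with motif letters in capitals. On the + strand, the Fgf7 window is chr2:126034408-126034657, the Fgf10 window chr13:118714449-118714698 and the Fgfrl1 window chr5:108693979-108694228.
Fgf7: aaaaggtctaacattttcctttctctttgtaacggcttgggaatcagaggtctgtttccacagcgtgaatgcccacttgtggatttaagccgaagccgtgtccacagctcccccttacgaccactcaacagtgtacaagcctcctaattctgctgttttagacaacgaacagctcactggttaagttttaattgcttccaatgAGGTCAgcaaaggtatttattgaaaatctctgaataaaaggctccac
Fgf10: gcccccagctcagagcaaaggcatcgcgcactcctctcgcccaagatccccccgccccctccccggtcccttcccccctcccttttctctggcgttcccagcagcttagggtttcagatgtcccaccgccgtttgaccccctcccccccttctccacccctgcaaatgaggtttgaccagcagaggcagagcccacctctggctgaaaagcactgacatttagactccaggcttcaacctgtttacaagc
Fgfrl1: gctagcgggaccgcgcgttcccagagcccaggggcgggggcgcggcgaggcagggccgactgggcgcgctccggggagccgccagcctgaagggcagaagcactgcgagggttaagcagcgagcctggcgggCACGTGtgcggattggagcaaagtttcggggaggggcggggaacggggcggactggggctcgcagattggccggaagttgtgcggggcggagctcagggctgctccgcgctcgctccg
The table of promoters held 7 of the 9 genes, in 8 windows. CACGTG, the E-box that CLOCK and BMAL1 bind, was found in 1 of these, that of Fgfrl1, 118 bases before the start, and in 6.02% of 32851 mouse windows of that length. AGGTCA, the half-site of ROR and REV-ERB receptors, was likewise found in 1, that of Fgf7, 47 bases before the start, and in 14% of all windows. The D-box TTATGTAA and the cyclic AMP element TGACGTCA were in none of the 8 and in 0.819% and 1.55% of all windows. Both strands were searched, and no window of these genes held more than 1 match. GC content rose from 43.6% in the Fgf7 window to 61.2% in that of Fgf10 and 73.6% in that of Fgfrl1. A match describes letters and is not evidence of binding.

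Receptor transcripts were dominated by Fgfr1, and Fgf7 had the highest mean level of the ligands, followed on the RPKM scale by Fgf18. Levels of different genes are set side by side as RPKM, which is scaled for transcript length as well as library total. Averaged over the 4 libraries, the order was Fgfr1 with 43.4 RPKM, Fgf7 with 16.7, Fgf18 with 6.75, Fgfrl1 with 2.52, Fgf10 with 2.04, Fgf1 with 1.23, Fgfr2 with 1.01, Fgf2 with 0.127 and Fgfr3 with 0.0738 RPKM. Fgfr1 exceeded Fgf7 in 4 of 4 libraries, although their ranges overlapped. Fgf7 exceeded Fgf18 in 3 of 4, the exception being WT 2. Fgf18, at 5.33 to 8.12 RPKM, was separate from Fgfrl1, at 1.99 to 3.42 RPKM. The place of Fgf18 rests on the division by length, since the lengths implied by reads and RPKM were 2.02 kb for Fgf18, 4.97 kb for Fgf7 and 8.51 kb for Fgf10. Without that division, Fgf10 exceeded Fgf18 in 3 of 4 libraries. From Fgfrl1 through Fgf10 and Fgf1 to Fgfr2, each range overlapped the next. Fgf2 lay apart below Fgfr2, and its range overlapped that of Fgfr3. Among the 20207 genes of a library, Fgfr1 ranked between 704 and 1361 by RPKM and Fgf7 between 1556 and 3507.

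**Figure D1:**
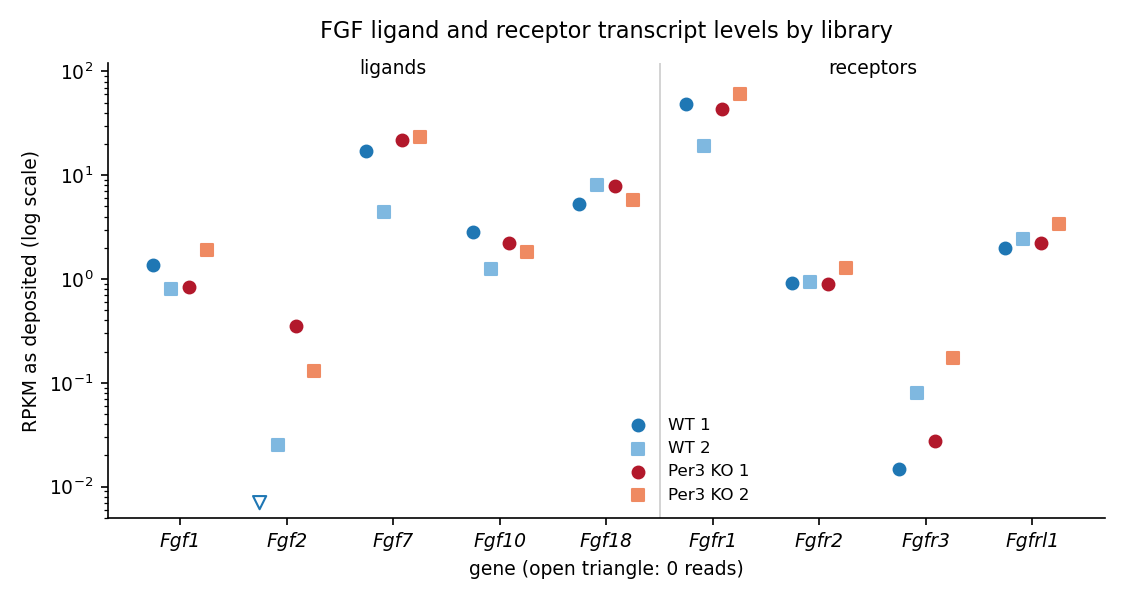
RPKM as deposited, on a log axis, of the 5 ligands and 4 receptors. Each point is 1 library and the open triangle marks 0 reads of Fgf2 in WT 1. Fgfr1 lies between 19.3 and 61.3 RPKM, and WT 2 is the lowest library for Fgfr1 and for Fgf7.

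The comparison of genotypes asks how the transcriptome of KO-labelled precursors differs from WT. None of the 8 FGF genes tested passed, and among these 8 Fgf7 alone had groups that did not overlap. Fgf2 was too low to be tested. Over the whole table of 12494 genes tested, the quasi-likelihood test of edgeR called 0% at a Benjamini-Hochberg adjusted p under 0.05, that is 0 genes. An unadjusted p under 0.05 was reached by 257 genes (2.06%), no member among them. DESeq2 called 19 genes (0.134%) and limma on log2(RPKM + 0.5) called 1 (0.0121%), again without a member. With edgeR and 1 library left out, the share called was 0.0297% without WT 1, 0.00743% without WT 2, 0.0075% without Per3 KO 1 and 0.0227% without Per3 KO 2, and no member was called. Groups did not overlap for 26% of all genes tested, with the KO-labelled pair on top for 14.6% and at the bottom for 11.5%. Of the members tested, 1 of 8 had the KO-labelled pair on top and 0 of 8 had it at the bottom, so the members showed no more separation than genes at large. Their log2 fold changes, KO-labelled over WT, were positive in 5 of 8 (50.6% over all genes) and negative in 3 (49.4%). The median was 0.05, against 0.01 over all genes tested. In bulk RNA, fewer cells of a type and less RNA per cell cannot be told apart.

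Fgf7, also called keratinocyte growth factor, is made by stromal cells and acts mainly on epithelia through the IIIb splice form of FGFR2. The gene lies on mm9 chromosome 2, 125860394 to 125916921. It was read 3142 and 683 times in the WT pair, and 4254 and 7609 times in the KO-labelled pair. Scaled to library size, the WT pair had 82.0 and 29.4 CPM, the KO-labelled pair 103 and 104 CPM. The KO-labelled values nearly coincided, WT 1 lay a little below them, and WT 2 lay far below. Group means were 55.7 ± 37.2 CPM for WT against 104 ± 1.20 CPM (SD, n = 2 each). Their log2 fold change of 0.89 (SE 0.61, edgeR adjusted p = 1.00) had a 95% interval from -0.52 to 2.31, which spans 0.697-fold to 4.96-fold. Leaving out WT 1 gave 1.82, and leaving out WT 2 gave 0.34. The smallest adjusted p over all alternatives was 0.13, without WT 1. The highest CPM was 3.56 times the lowest over the 4 libraries and 1.27 times without WT 2. A gene within the span of Fgf7, 4930525F21Rik, had at most 11 reads.

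Fgf10 belongs to the ligand subfamily of Fgf7 and binds the same receptor form. It lies on chromosome 13, 119503506 to 119581380. The WT pair had 23.1 and 14.0 CPM, the KO-labelled pair 18.1 and 14.0 CPM, so the groups overlapped. A log2 fold change of -0.21 (SE 0.57, interval -1.53 to 1.12) turned to 0.20 without WT 1, and to 0.06 with limma on log2(RPKM + 0.5), where the median of all genes was shifted by 0.28. By RPKM, Fgf7 was 6.08 and 3.59 times Fgf10 in the WT pair and 9.71 and 12.7 times in the KO-labelled pair. Both KO-labelled ratios were higher. This was 1 of 5 ratios computed between members, and an exact two-sided permutation test of 2 against 2 cannot give a p below 0.33.

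Fgf18, a ligand known from cartilage, bone and lung, lies on chromosome 11, 33017431 to 33047400. The WT pair had 10.3 and 21.8 CPM, the KO-labelled pair 15.1 and 10.4 CPM. WT 2 was thus the highest library for Fgf18 while it was the lowest for Fgf7. A log2 fold change of -0.33 (SE 0.64, interval -1.82 to 1.16) turned to 0.32 without WT 2, and to 0.02 with limma on log2(RPKM + 0.5).

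Fgf1 binds all FGF receptors and leaves the cell without a signal peptide. It lies on chromosome 18, 38998327 to 39078353. The WT pair had 9.50 and 7.78 CPM, and the KO-labelled pair, with 5.82 and 12.4 CPM, held both the lowest and the highest value. Its log2 fold change was 0.08 (SE 0.70, interval -1.57 to 1.72), and it became -0.05 with WT 2 left out and -0.57 with Per3 KO 2 left out. Gm5820, within the span of Fgf1, had 47 reads in WT 2 and 0 in the others. How reads were divided between the overlapping genes is not given in the labels, so the Fgf1 value of WT 2 is uncertain.

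Fgf2, or basic FGF, is a growth factor often added to cultures of precursor cells. It lies on chromosome 3, 37247575 to 37303752, and was near the limit of detection. The WT pair had 0 reads and 1 read, the KO-labelled pair 18 and 11 reads. Both WT libraries were under the floor of 3 reads taken as the limit of detection, and both KO-labelled libraries were above it. Summed over libraries and divided by total reads, 29 KO-labelled reads against 1 WT read gave a ratio of 18.0, with an exact 95% interval of 2.98 to 734. That interval covers counting error and not the spread between libraries. The ratio was 11.0 (1.60 to 474) without Per3 KO 1 and 29.3 (4.62 to 1220) without Per3 KO 2. No alternative that tested Fgf2 called it, the smallest adjusted p being 0.835.

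Fgfr1, the receptor tyrosine kinase typical of mesenchymal cells, lies on chromosome 8, 26629244 to 26686186. It was read 15760 and 5268 times in the WT pair and 15280 and 35600 times in the KO-labelled pair, or 411 and 226 CPM against 369 and 489 CPM. WT 1 fell between the KO-labelled libraries, so the groups overlapped, and WT 2 was lowest as for Fgf7. Means of 319 ± 131 CPM for WT and 429 ± 84.5 CPM (SD, n = 2 each) gave a log2 fold change of 0.43 (SE 0.60, interval -0.98 to 1.83). Leaving out WT 1 gave 0.93, and leaving out WT 2 gave 0.07.

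Fgfr2, through which FGF7 and FGF10 act on epithelia, lies on chromosome 7, 137305965 to 137410322. The WT pair had 7.80 and 11.2 CPM, the KO-labelled pair 7.68 and 10.5 CPM, and the highest value was 1.46 times the lowest. A log2 fold change of -0.06 (SE 0.66, interval -1.60 to 1.48) turned to 0.23 without WT 2, to 0.13 without Per3 KO 1 and to 0.15 with limma on log2(RPKM + 0.5). Counts cover whole genes, so the IIIb and IIIc splice forms were not separated. By RPKM, Fgfr1 was 54.0 and 20.7 times Fgfr2 in the WT pair and 49.2 and 47.5 times in the KO-labelled pair.

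Fgfrl1 encodes a receptor that lacks the kinase domain and binds ligand without the usual signal. On chromosome 5, 109123521 to 109135917, it had 8.22 and 14.0 CPM in the WT pair and 9.25 and 13.4 CPM in the KO-labelled pair. The spread within each group exceeded the difference between the group means. Its log2 fold change of 0.03 (SE 0.65, interval -1.48 to 1.54) turned to -0.30 without WT 1, to -0.26 without Per3 KO 2 and to -0.02 with DESeq2 size factors.

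Fgfr3, a receptor best known from cartilage, was barely detected. On chromosome 5, 34064955 to 34079712, the WT pair gave 4 and 18 reads and the KO-labelled pair 8 and 84. By CPM the libraries differed by 7.42 times within WT and by 5.97 times within the KO-labelled pair. The fitted log2 fold change of 0.63 had an SE of 2.05, and it was -1.16 without Per3 KO 2, -0.19 without WT 1 and 2.68 without WT 2.

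**Figure D2:**
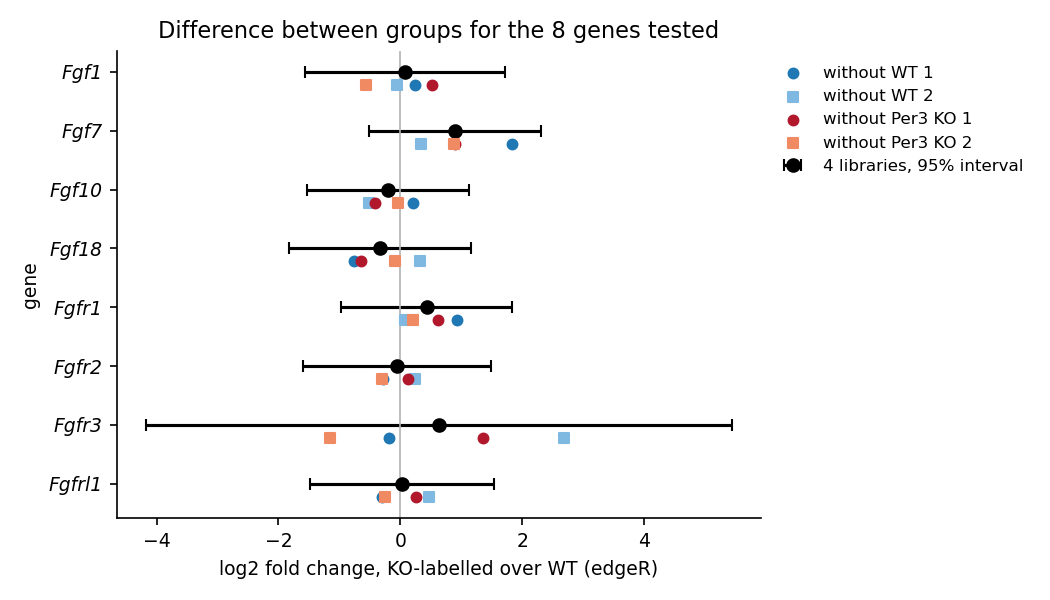
Log2 fold change, KO-labelled over WT, of the 8 genes tested with edgeR. Black points with bars are values over 4 libraries with 95% intervals, and coloured points are values with 1 library left out. All 8 intervals include 0, and Fgf7 ranges from 0.34 without WT 2 to 1.82 without WT 1.

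The make-up of the ligands set WT 2 apart. As a share of the summed RPKM of the 5 ligands, Fgf7 made up 64.4% and 30.4% in the WT pair and 65.8% and 70.9% in the KO-labelled pair. Fgf18 made up 19.9% and 55.5% in the WT pair and 23.8% and 17.4% in the KO-labelled pair, so in WT 2 it exceeded Fgf7 on this scale. Without division by length this order turned, and in WT 2 Fgf7 made up 40.2% and Fgf18 29.8% of the summed ligand CPM. Fgf10 contributed 10.6% and 8.48%, then 6.78% and 5.57%, both KO-labelled shares being lower. Its own RPKM overlapped between groups, at 2.85 and 1.24, then 2.23 and 1.83. The share, like the ratio of Fgf7 to Fgf10, depends on the level of Fgf7. Fgf1 contributed 2.55% to 5.75% and Fgf2 at most 1.07%. Summed ligand levels were 26.9 and 14.6 RPKM in the WT pair and 32.9 and 32.8 RPKM in the KO-labelled pair. As CPM the sums were 125 and 73.0, then 142 and 141. Like the share of Fgf10, these sums depend on the level of Fgf7, and they were not tested.

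Fgfr1 made up 94.4% and 84.9% of the summed receptor RPKM in the WT pair and 93.3% and 92.6% in the KO-labelled pair. Fgfrl1 held 3.84% and 10.7%, then 4.76% and 5.17%. Fgfr2 held between 1.75% and 4.09%, and Fgfr3 at most 0.348%. The receptor order by RPKM, Fgfr1, Fgfrl1, Fgfr2 and Fgfr3, was the same in all 4 libraries. Of the 10 precursor markers, WT 2 was the highest library for 5, the lowest for 3 and in between for 2. Dcn, for example, had 12808 CPM there against 11866 to 13500 CPM elsewhere. It departed most for Lum, 727 CPM against 3244 to 4334 CPM elsewhere, and for Ly6a, the Sca1 gene, 14274 CPM against 2133 to 3767 CPM. Its sum over 7 mature adipocyte markers was 789 CPM against 189 to 209 CPM elsewhere. Of these 7, WT 2 was the highest library for 3, the lowest for 2 and between or tied for 2. Of that sum Fabp4 alone gave 773 CPM, while Pnpla2, at 5.37 CPM against at least 13.3 CPM elsewhere, and Slc2a4, at 0.215 CPM against 0.574 to 6.23 CPM, were lowest in WT 2. Lep was at 0 in all 4 libraries. The markers named here were chosen after their values were seen, and their part in the FGF values was not tested.

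**Figure D3:**
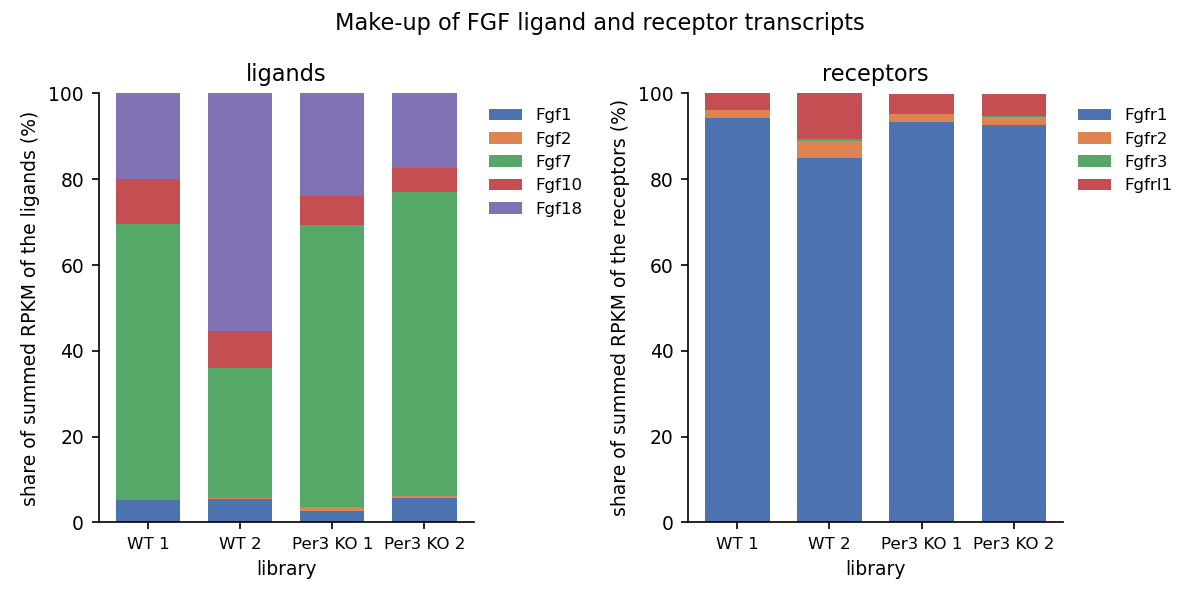
Share in percent of each gene in the summed RPKM of the 5 ligands and of the 4 receptors, 1 stacked bar per library. Fgf7 holds 64.4% to 70.9% of the ligand bars except in WT 2, where it holds 30.4% and Fgf18 55.5%. Fgfr1 holds 84.9% to 94.4% of the receptor bars.

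Genes most like the leading ligand and receptor were taken by the smallest root mean square difference of centred log2 CPM over the 4 libraries. For Fgf7 they were Ecsit (0.075), Lmf1 (0.075) and Kdm6b (0.078), and for Fgfr1 they were Cluap1 (0.033), Bgn (0.046) and Acly (0.048). All 6 were lowest in WT 2, which follows from choosing them for likeness to Fgf7 and Fgfr1, both lowest there. Kdm6b, for example, had 25.3 CPM in WT 2, against 74.5 CPM in WT 1 and 82.1 and 83.5 CPM in the KO-labelled pair. With 4 libraries such likeness is common: of 4054 genes compared, 185 lay within 0.25 of Fgf7 and 502 within 0.25 of Fgfr1.

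Most other genes of the FGF family were low, and not all of them encode secreted ligands. Of 17, 5 had no read in any library and 5 were high enough to be tested, of which 1 had a positive log2 fold change, 4 a negative one and none passed. Their median was -0.74, the value of Fgf12, which had 159 and 93 reads in the WT pair and 201 and 1.939 in the KO-labelled pair. Without WT 2 the median was 0.16, but over 6 genes, since Fgf23, with 62 reads in Per3 KO 2 and 0 elsewhere, then entered. Over the same 5 genes the median without WT 2 was -0.52, the value of Fgf21. Fgf9, a ligand known from embryonic mesothelium and gonad, had 47 and 37 reads in the WT pair but 9 and 4 in the KO-labelled pair. By CPM these were 1.41 ± 0.258 for WT against 0.136 ± 0.115 (SD, n = 2 each), with no overlap. Fgf9 passed the filter only through the WT pair, so this side was fixed by the filter. Its log2 fold change was -3.36 (SE 1.97, edgeR adjusted p = 1.00), and it stayed between -4.63 and -2.68 with a library left out. Fgf21, an endocrine ligand of the liver, had 36 and 59 reads in the WT pair and 0 and 94 in the KO-labelled pair.

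Among co-receptors and FGF-binding proteins, 8 were tested, 5 with a positive and 3 with a negative value, and none passed. Their median log2 fold change was 0.45, and 0.06 without WT 2, where 9 were tested. The gene with the highest RPKM, Flrt2, which encodes an adhesion protein, had 77.7 ± 2.81 CPM for WT against 76.9 ± 35.3 CPM (SD, n = 2 each). Kl, which encodes the co-receptor Klotho, had 0 and 1.995 reads in the WT pair, under the floor, and 14 and 66 reads in the KO-labelled pair. Fgfr4, a receptor gene placed in this list, had 21 and 53 reads in the WT pair and 25 and 22 in the KO-labelled pair.

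Heparan sulfate carriers and enzymes were nearly all expressed, 23 of 24 being tested. Of these 9 were positive and 14 negative, their median was -0.05, and none passed. The median turned to 0.02 without WT 1, and 6 of 23 were positive without Per3 KO 1. With limma on log2(RPKM + 0.5), 17 of 20 were positive with a median of 0.19, where the median of all genes was 0.27. The glypican gene Gpc3 had the highest RPKM, with 821 ± 290 CPM for WT against 805 ± 180 CPM (SD, n = 2 each). Hspg2, which encodes perlecan of the basement membrane, had 105 and 84.5 CPM in the WT pair and 57.8 and 66.1 CPM in the KO-labelled pair. Both KO-labelled values were lower, with a log2 fold change of -0.61 (SE 0.48, edgeR adjusted p = 1.00). Gpc1, another glypican gene, had 3.44 and 1.72 CPM in the WT pair and 6.40 and 4.76 CPM in the KO-labelled pair, a log2 fold change of 1.11 (SE 0.95).

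In the adaptors and the RAS-ERK cascade, 19 genes were tested, of which 10 were positive, 9 were negative and none passed. Their median of 0.02 turned to -0.10 without WT 1, with 8 of 19 positive, and to -0.08 without Per3 KO 2. With limma on that RPKM scale, 14 of 15 were positive with a median of 0.26, beside 0.27 over all genes. The RAS gene Nras had the highest RPKM, with 130 ± 51.9 CPM for WT against 176 ± 48.9 CPM (SD, n = 2 each). Map2k2, which encodes a kinase that activates ERK, had 15.2 and 2.11 CPM in the WT pair and 25.2 and 13.5 CPM in the KO-labelled pair. Its log2 fold change of 1.16 (SE 0.93) was 0.35 without WT 2 and 3.20 without WT 1. Cbl, which encodes a ubiquitin ligase acting on activated receptors, had 104 and 6 reads in the WT pair and 25 and 22 in the KO-labelled pair. A log2 fold change of -1.72 (SE 1.88) turned to 0.81 without WT 1.

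Feedback inhibitors, which ERK signalling induces, were positive in 6 and negative in 3 of the 9 tested, and none passed. The KO-labelled pair was on top for 3 of the 9 and at the bottom for 1, against 14.6% and 11.5% of all genes tested. In the other lists these counts were 0 and 1 of 5 other FGF family genes and 2 and 0 of 8 co-receptors and binding proteins. They were 1 and 3 of 23 heparan sulfate genes and 1 and 0 of 19 adaptor and cascade genes. For transcription factor and cyclin genes they were 1 and 2 of 10. Spred3 and Kl, counted on top, passed the filter only through the KO-labelled pair, and Fgf9, counted at the bottom, only through the WT pair. Their sides were thus fixed by the filter. Spred1, an inhibitor of RAS activation, had 10.8 and 5.72 CPM in the WT pair and 18.6 and 20.0 CPM in the KO-labelled pair. Its log2 fold change of 1.22 (SE 0.62, edgeR adjusted p = 1.00) stayed between 0.84 and 1.76 with a library left out. Spry2, with the highest RPKM of the list, had 53.3 and 49.3 CPM in the WT pair and 65.5 and 60.9 CPM in the KO-labelled pair, a log2 fold change of 0.30 (SE 0.46). Spry1, the gene counted at the bottom, had 5.40 and 5.80 CPM in the WT pair and 3.19 and 1.65 CPM in the KO-labelled pair. Its log2 fold change was -1.21 (SE 0.95). Spred3 had 0 reads in both WT libraries and 33 and 18 in the KO-labelled pair. Against a floor of 3 reads per WT library the KO-labelled mean was at least 5.04-fold higher, or at least 2.38-fold without Per3 KO 1. That bound does not cover the spread between libraries. The edgeR log2 fold change of Spred3 was 7.52 (SE 3.32), and its 95% interval, -0.24 to 15.29, included 0. The list median was 0.30, also with Spred3 at that bound. It was 1.82 without WT 1, where the median of all genes tested was 0.22, and 0.07 without WT 2, where 10 were tested.

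Of the transcription factors and cyclin D1 that respond to FGF-ERK signalling among other inputs, 10 were tested, 3 positive and 7 negative, and none passed. Their median of -0.21 turned to 0.09 without WT 1. The ETS factor gene Etv1 had 20.5 and 7.44 CPM in the WT pair and 4.59 and 5.60 CPM in the KO-labelled pair. Its log2 fold change of -1.45 (SE 0.75, edgeR adjusted p = 1.00) was -0.54 without WT 1. Its relative Etv5 had 5.48 and 2.54 CPM in the WT pair and 9.59 and 5.74 CPM in the KO-labelled pair, a log2 fold change of 0.93 (SE 0.83). The 2 ETS genes thus lay on opposite sides of WT without passing the test. Fos, an immediate early gene with the highest RPKM of the list, had 464 ± 84.9 CPM for WT against 436 ± 5.46 CPM (SD, n = 2 each). In each list, up to 2 genes were named for the smallest p and 1 for the highest RPKM. Fgf12, Fgf23 and Spry1 were named besides that rule.

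**Figure D4:**
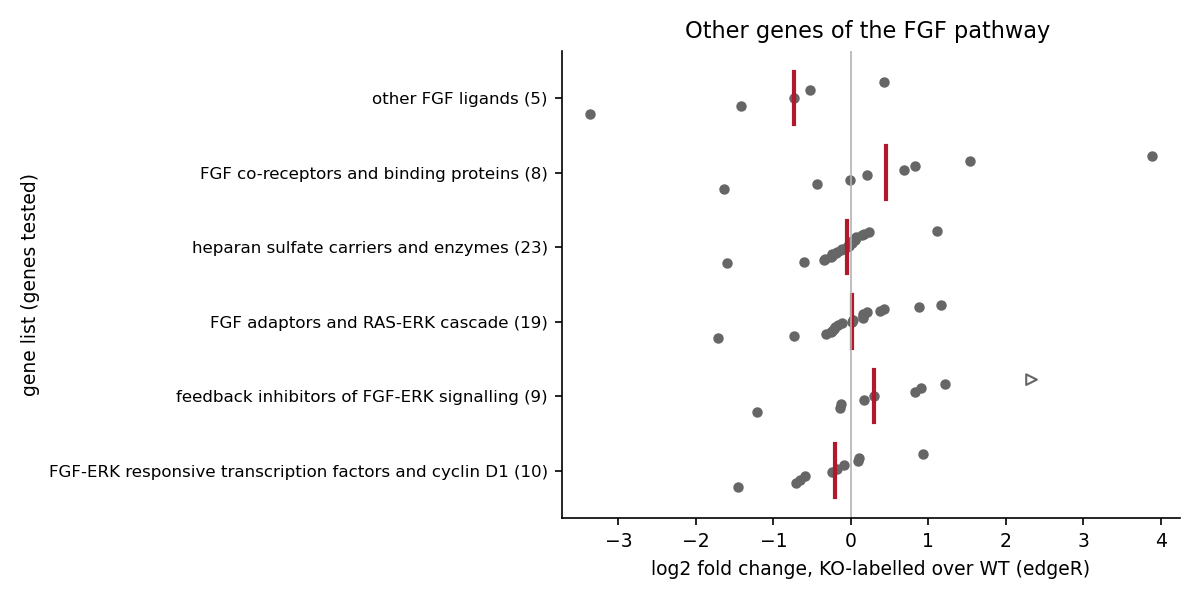
Log2 fold change, KO-labelled over WT, of the genes tested in 6 lists of other FGF pathway genes. The row of other FGF ligands also holds family genes that do not encode secreted ligands. Each point is 1 gene, the red line is the median of its list, and the open triangle is the lower bound of Spred3. The medians lie between -0.74 and 0.45, and no gene passed the test.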

How the data were processed

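RNA was sequenced from 4 libraries made with oligo-dT primed cDNA, per the labels' protocols. The sample titles give genotype and replicate. Per the file headers, the authors deposited a read count per gene, which is partly fractional and so an estimated count without normalization, and an RPKM, scaled for length and library total. The submitters' processing notes list STAR 2.4.0, Cufflinks, Cuffdiff 2.2.1 and mm9. Annotation, strandedness and the handling of reads shared between genes are not stated there, and such sharing could shift counts of overlapping genes.

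Counts were rounded and filtered with filterByExpr (minimum count 10, minimum total 15), and scaled by TMM (factors 1.03 and 0.832 for the WT pair, 1.04 and 1.12 for the KO-labelled pair). Testing used edgeR 4.0.16 in R 4.3.3 (glmQLFit, glmQLFTest, two-sided, a single genotype term), adjusted by Benjamini-Hochberg over every gene tested at 0.05. The biological coefficient of variation was 0.742. Each SE is the absolute log2 fold change over the square root of F. Alternatives were DESeq2 1.42.0, limma 3.58.1 on log2(RPKM + 0.5, 0.1 or 1) at a mean RPKM of at least 1, DESeq2 size factors, other filters, a replicate block, and each library left out. The code was tested on simulated data.

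The text names all members, Per3, for each list up to 2 genes by p and 1 by RPKM, and 3 genes of at least 5 RPKM most like each leading member. Fgf12, Fgf23, Spry1 and some markers of cell types were named besides that rule. Members and lists were chosen with earlier results of these data known. The floor is 3 reads. Reads carry no molecular identifiers, so floors and counting intervals cover counting error only. Every pair of libraries differed beyond sampling noise, with chi-square per degree of freedom of at least 157.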

Additional observations from a re-analysis of the deposited data

How the results depend on the processing

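No member passed the threshold in any alternative that tested it. The number of genes called over the whole table, 0 in the main test, was 4 with no filter, 19 with DESeq2, 1 with each of the 3 limma settings and 1 to 4 with a library left out. DESeq2 size factors and a mean RPKM of at least 1 gave 0. With the replicate number as a replicate block it was 1. The labels do not say whether the numbers pair animals or litters. Deviations of same-numbered libraries from their group means correlated slightly negatively across genes (-0.154), and the crossed replicate block, added after seeing the data, called 2.

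Fgf7 and Fgfr1 kept a positive log2 fold change in every alternative. Several values near 0 changed sign, and so did those of Fgfr3, Per3 and Cbl, which were further from 0. Fgf1 was at -0.02 with the replicate block and with the crossed block. With limma and pseudocounts of 0.5, 0.1 and 1, Fgf10 was at 0.06, 0.09 and 0.04, Fgf18 at 0.02 each, Fgfr2 at 0.15, 0.20 and 0.12, Flrt2 at 0.17, 0.18 and 0.16, Gpc3 at 0.27, 0.28 and 0.27 and Fos at 0.20 each. The median of all genes moved by 0.27 to 0.30 in these settings. Fgfrl1 was at -0.02 with DESeq2 size factors and -0.01 with DESeq2, and Flrt2 at 0.01 with no filter. With a library left out, log2 fold changes ranged from -0.57 to 0.51 for Fgf1, -0.52 to 0.20 for Fgf10, -0.77 to 0.32 for Fgf18, -0.31 to 0.23 for Fgfr2, -1.16 to 2.68 for Fgfr3, -0.30 to 0.47 for Fgfrl1, -0.17 to 1.28 for Per3, -0.58 to 0.37 for Flrt2, -0.34 to 0.39 for Gpc3, -2.58 to 0.81 for Cbl and -0.26 to 0.11 for Fos. Without division by length, Fgf7 and not Fgf18 was the leading ligand in WT 2, and Fgf7 made up 73.0% of the ligands and Fgfr1 95.3% of the receptors in KO-labelled libraries. With 2 libraries a group and this spread, the intervals of the members span at least a fold change of 2 in each direction except downwards for Fgf7 and Fgfr1. The causes of these shifts were not tested.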
